A study of Mus musculus with 8 samples.

Results

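The 10 histone chaperone genes described here were followed by symbol in the gene and transcript tables of C3H10T1/2 cells, a mouse embryonic mesenchymal stem cell line of the C3H strain. They were the 5 members of the nucleosome assembly protein 1 family (Nap1l1, Nap1l2, Nap1l3, Nap1l4 and Nap1l5), Set, and the H3-H4 chaperones Asf1a, Asf1b, Chaf1a and Hira. All 10 were among the 18605 genes of the table, and 8 of them were among the 13470 genes tested. The study asked what a knockdown of Nap1l2 does to gene expression in these cells and during bone differentiation. Each of the 4 groups held 2 RNA-seq libraries. NC cells carried a non-target control, KD-Nap1l2 cells carried a lentiviral short hairpin RNA against Nap1l2, and NC-7d and KD-Nap1l2-7d were the same kinds of cells after 7 days of osteogenic induction in medium with dexamethasone, ascorbic acid and β-glycerol phosphate. The uninduced groups were taken as day 0. Several hairpins against Nap1l2 were designed and the sources used here do not say which one the sequenced cells carried, so the KD-Nap1l2 libraries may represent 1 hairpin and 1 infection. The libraries held between 17420284 and 19427359 estimated counts. All 10 genes of a mesenchymal marker list were detected in each of the 8 libraries, with a summed level of 10632 to 28279 counts scaled to a total of 1000000 a library (CPM), against at most 14.8 CPM for the macrophage, 6.44 CPM for the endothelial, 8.47 CPM for the epithelial and 2.58 CPM for the neuronal list.

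Histone chaperones bind the basic histone proteins outside the nucleosome, keep them from aggregating, and hand them to DNA or take them from it. The NAP1 proteins and SET share a fold, and the NAP1 proteins mainly bind H2A-H2B. ASF1A and ASF1B carry newly made H3-H4 to downstream chaperones, which are the CAF-1 complex at replication forks, with CHAF1A as its large subunit, and the HIRA complex for the variant H3.3 at any time of the cell cycle. Among the NAP1 genes, Nap1l1 and Nap1l4 are expressed in most tissues, whereas Nap1l2, Nap1l3 and Nap1l5 are known mainly from neurons.

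Levels were compared between genes per transcript length, as fragments scaled to transcript length and library size (FPKM). Nap1l1, on chromosome 10 (GRCm38.p6, chr10:111472882-111498150, plus strand), was the highest of the 10 with 172 to 262 FPKM over the 8 libraries. Set (chr2:30061996-30072577, plus strand) followed with 53.3 to 83.3 FPKM, and Nap1l4 (chr7:143513579-143549882, minus strand) with 39.9 to 46.4 FPKM. The ranges of these genes did not overlap. The H3-H4 chaperones formed the next tier, and their ranges did overlap, with 9.89 to 19.7 FPKM for Asf1b (chr8:83955694-83970195, plus strand), 9.96 to 13.8 FPKM for Asf1a (chr10:53596961-53609225, plus strand), 7.26 to 14.9 FPKM for Chaf1a (chr17:56040416-56068026, plus strand) and 8.46 to 12.6 FPKM for Hira (chr16:18876750-18970309, plus strand). Asf1b lay above Chaf1a in each of the 8 libraries. No other pair of these 4 genes kept the same order in all libraries. Nap1l2 (chrX:103184176-103186653, minus strand), the targeted gene, lay at 0.04 to 0.33 FPKM. Nap1l3 (chrX:122394560-122397385, minus strand) was listed at 0 in 6 libraries, at 0.05 FPKM in NC replicate 2 and at 0.01 FPKM in NC-7d replicate 2. Nap1l5 (chr6:58905233-58907126, minus strand) was listed at 0.03 FPKM in KD-Nap1l2 replicate 1 and in NC-7d replicate 2, which was 1 count each, and at 0 in the other 6. Nap1l3 and Nap1l5 did not pass the filter on low counts and were not tested. A count of 0 allows up to 3 counts, which is 0.154 to 0.176 CPM depending on the library.

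**Figure D1:**
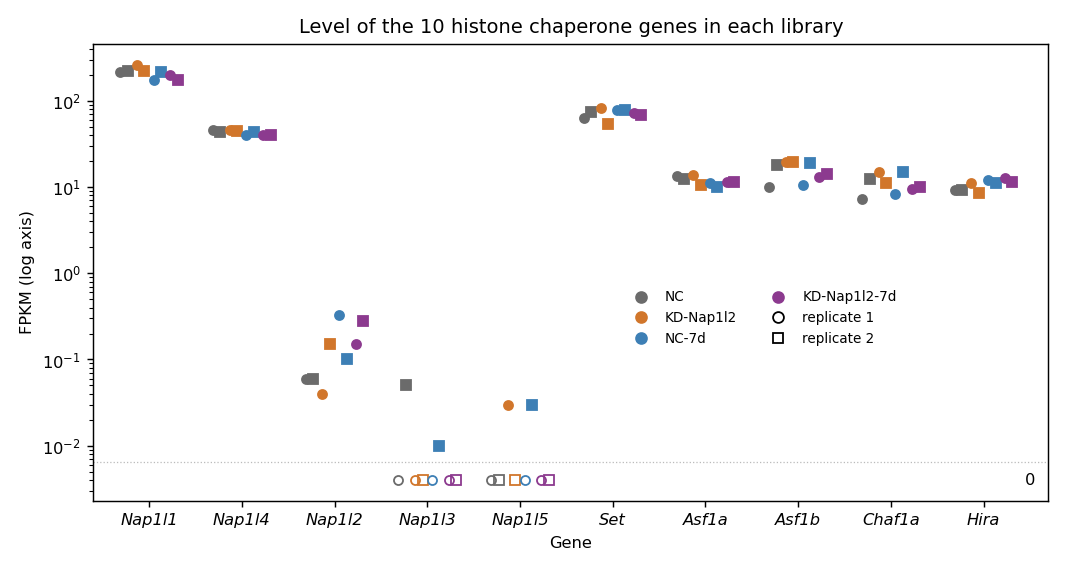
FPKM of the 10 genes (log axis) in each of the 8 libraries, coloured by group, with circles for replicate 1 and squares for replicate 2; open symbols on the bottom line are libraries listed at 0. Nap1l1 lies at 172 to 262 FPKM in every library, and Nap1l2, Nap1l3 and Nap1l5 lie at or below 0.33 FPKM.

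The Nap1 family RNA of these cells was therefore almost wholly Nap1l1 and Nap1l4. Nap1l1 made up 81.1% to 84.9% of the summed FPKM of the 5 genes and Nap1l4 15.1% to 18.8%. Nap1l2 made up 0.0130% to 0.155%. The ratio of Nap1l1 to Nap1l4 in FPKM ran from 4.32 to 5.64 over the libraries. The 3 members at the bottom of the range share a gene structure that the highly expressed ones do not have. In the GENCODE annotation, Nap1l2, Nap1l3 and Nap1l5 each consist of 1 exon, whereas the main transcripts of Nap1l1 and Nap1l4 have 15 or 16.

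Nap1l2 was the gene that the knockdown targeted, and its level was the check of the labels. Before induction it had 3 counts in each NC library and 2 and 7 counts in the KD-Nap1l2 libraries. At day 7 the NC-7d replicates had 15 and 5 counts and the KD-Nap1l2-7d replicates 7 and 13. The knockdown libraries were not lower than the controls at either time, and the groups overlapped. The mean before induction was 0.158 ± 0.00583 CPM (SD, n = 2) for NC, and KD-Nap1l2 had 0.253 ± 0.206 CPM (SD, n = 2). At day 7 the control mean was 0.571 ± 0.436 CPM (SD, n = 2), beside 0.564 ± 0.254 CPM (SD, n = 2) for the knockdown. The log2 fold change of KD-Nap1l2 over NC was 0.64 (SE 0.98, 95% interval -1.61 to 2.90, edgeR quasi-likelihood adjusted p = 0.812), and that of KD-Nap1l2-7d over NC-7d was -0.0012 (SE 0.80, 95% interval -1.85 to 1.84, edgeR adjusted p = 0.9999). The sign of the second value turned under 6 of the 11 alternatives tried. At 2 to 15 counts a library, a knockdown of the transcript was not detectable at this depth, and a fold change of either sign lies within the intervals. The labels are therefore not checked by the target here, and KD-Nap1l2 stands for the libraries labelled so.

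The primer pair that the study used to measure Nap1l2 by quantitative PCR shows which part of the gene was read outside the sequencing. Each primer matched the transcripts of 1 gene only in GENCODE, Nap1l2, and both lie in its single exon. The product spans 146 bases. The forward primer (chrX:103186332-103186351 of GRCm38) lies before the coding sequence in the 5′ untranslated region and the reverse primer (chrX:103186206-103186225) lies within the coding sequence. The primers are given 5′ to 3′, in lower case throughout.
Nap1l2 forward: cgggcttagccaccataagt
Nap1l2 reverse: ttcactgcggtcctgacttt

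With the knockdown, none of the 8 tested chaperones passed an adjusted p of 0.05 in edgeR. Before induction, 0 of 8 were called and 0 had an unadjusted p under 0.05, where 0.0817% of all tested genes were called, which was 11 genes, and 13.7% had an unadjusted p under 0.05. At day 7, 0 of 8 were called and 0 had an unadjusted p under 0.05, where 0% of all tested genes were called and 7.85% had an unadjusted p under 0.05, which was 1057 genes. Averaged over both times, 0 of 8 were called against 0.0594% of all genes, and for the difference between the contrasts before and after induction 0 of 8 were called against 0% of all genes. DESeq2 also called 0 of the members in each of these contrasts, while over all genes it called 453 before induction, 78 at day 7, 467 on average and 100 for the difference. The median log2 fold change of the 8 was 0.12 before induction and -0.04 at day 7, beside 0.01 and -0.01 over all tested genes. Since RNA was taken from whole cultures, fewer cells of a kind and less RNA per cell cannot be told apart in any of these values.

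The other Nap1 genes did not differ between the lines beyond the spread between replicates. Nap1l1, the general H2A-H2B chaperone of the family, measured 420 and 426 CPM in NC, 493 and 444 CPM in KD-Nap1l2, 346 and 413 CPM in NC-7d, and 382 and 350 CPM in KD-Nap1l2-7d. Both KD-Nap1l2 libraries lay above both NC libraries before induction, with a log2 fold change of 0.15 (SE 0.14, edgeR adjusted p = 0.701), and at day 7 the groups overlapped. Nap1l4, its close relative, was the steadiest of the members. It measured 105 and 99.7 CPM in NC, 101 and 107 CPM in KD-Nap1l2, 93.6 and 96.2 CPM in NC-7d, and 91.1 and 93.8 CPM in KD-Nap1l2-7d. Its knockdown log2 fold changes were 0.03 (95% interval -0.22 to 0.28) before induction and -0.04 (95% interval -0.29 to 0.21) at day 7. The intervals bound the change of Nap1l4 more tightly than that of any other member.

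Set, which also inhibits the phosphatase PP2A, measured 176 and 205 CPM in NC, 222 and 156 CPM in KD-Nap1l2, 220 and 212 CPM in NC-7d, and 198 and 191 CPM in KD-Nap1l2-7d. The KD-Nap1l2 replicates were the highest and the lowest of the 8 libraries. At day 7 both KD-Nap1l2-7d libraries lay below both NC-7d libraries, with a log2 fold change of -0.15 (SE 0.18, edgeR adjusted p = 0.907). That difference was smaller than its error.

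**Figure D2:**
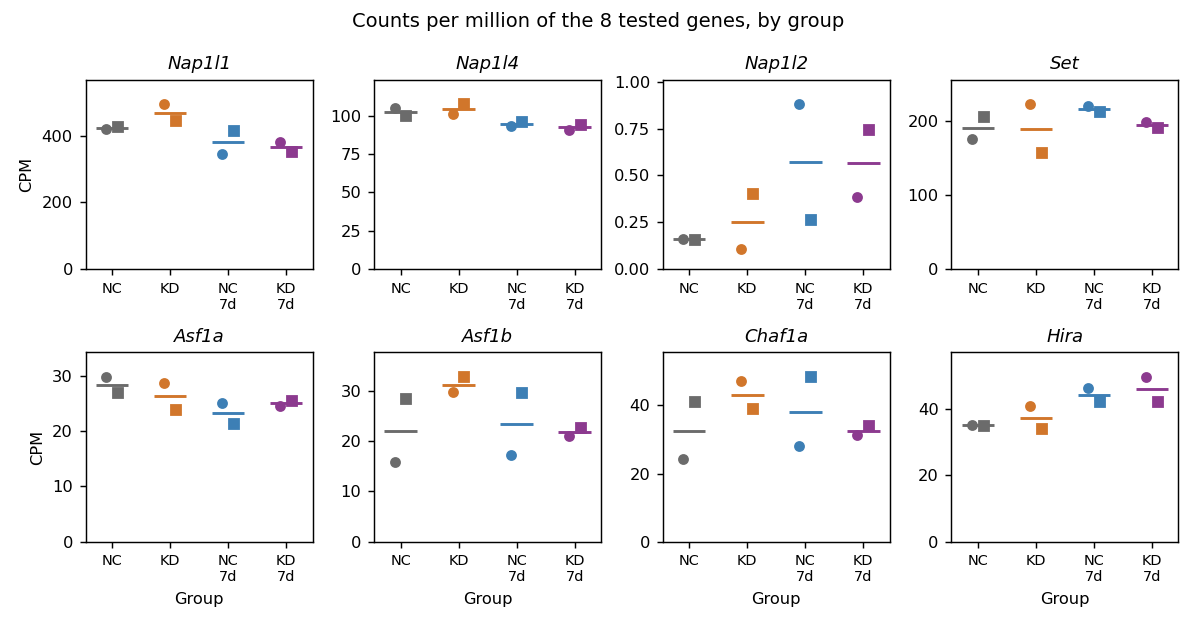
CPM of the 8 tested genes in each library by group (linear axes from 0, a separate scale for each gene); points are libraries, with circles for replicate 1 and squares for replicate 2, and short lines are group means of 2 libraries. Hira lies at 33.9 to 40.9 CPM before induction and at 42.1 to 49.6 CPM at day 7, and Asf1b and Chaf1a are low in NC replicate 1 and NC-7d replicate 1.

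The contrasts of day 7 with day 0 ask what osteogenic induction does. None of the 8 members was called by edgeR or by DESeq2 in either line or on average over both, although induction was by far the larger contrast over all genes. In the NC line, 8.21% of tested genes were called and 0 of 8 members, of which 1 (Hira) had an unadjusted p under 0.05, beside 24.5% of all tested genes. In the KD-Nap1l2 line, 14.2% of tested genes were called and 0 of 8 members, of which 1 (Nap1l1) had an unadjusted p under 0.05, beside 31.4% of all tested genes. Averaged over both lines, 25.5% of tested genes were called and 0 of 8 members, of which 3 (Hira, Nap1l1 and Nap1l2) had an unadjusted p under 0.05, beside 39.5% of all tested genes. Nap1l2 passed the filter on low counts through day 7 libraries, so its p cannot be read as an independent test of induction.

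Hira, which places H3.3 outside replication, came nearest to a call. It measured 35.3 and 34.8 CPM in NC, 40.9 and 33.9 CPM in KD-Nap1l2, 46.3 and 42.1 CPM in NC-7d, and 49.6 and 42.1 CPM in KD-Nap1l2-7d. All 4 day 7 libraries lay above all 4 uninduced ones. The log2 fold change was 0.33 in the NC line (SE 0.14), 0.29 in the KD-Nap1l2 line (SE 0.14) and 0.31 on average (SE 0.10, 95% interval 0.08 to 0.55, edgeR adjusted p = 0.0557). Without KD-Nap1l2 replicate 1, the highest of the uninduced libraries, the average was 0.38 and passed the test (edgeR adjusted p = 0.0287). The replicate block, a term for the replicate number, gave 0.31 (edgeR adjusted p = 0.0385), and over the 14 alternative settings the adjusted p ran from 0.0287 to 0.194. A 2-sided exact permutation test of the day 7 against the uninduced libraries gave p = 0.0286 for Hira, which is the smallest that 4 against 4 libraries allow, and 0.190 after adjustment over the 20 tests of this kind.

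Nap1l1 and Nap1l4 lay on the other side. For both, the 4 day 7 libraries were below the 4 uninduced ones, and the exact permutation test gave its smallest p for each (p = 0.0286, adjusted 0.190). That p follows from the lack of overlap itself. The share of all tested genes separated in this way was not counted, so these separations and that of Hira have no background here. The average log2 fold change was -0.26 for Nap1l1 (SE 0.10, 95% interval -0.49 to -0.02, edgeR adjusted p = 0.0997) and -0.14 for Nap1l4 (SE 0.077, 95% interval -0.32 to 0.04, edgeR adjusted p = 0.209). For Nap1l1 the value was -0.16 in the NC line (edgeR adjusted p = 0.544) and -0.36 in the KD-Nap1l2 line (edgeR adjusted p = 0.134). The size of these differences was 0.837-fold and 0.906-fold. Nap1l2 showed the largest average log2 fold change of the 8, 1.47 (SE 0.60, 95% interval 0.09 to 2.85, edgeR adjusted p = 0.108), on 2 to 7 counts a library before induction and 5 to 15 at day 7. The day 7 and the uninduced libraries overlapped (exact permutation p = 0.0857). Nap1l2 passed the filter on low counts through 2 day 7 libraries, NC-7d replicate 1 and KD-Nap1l2-7d replicate 2, so its place among the tested members already depended on a higher level at day 7. Asf1a differed by -0.18 (SE 0.11, edgeR adjusted p = 0.252), Set by 0.11 (SE 0.13, edgeR adjusted p = 0.558), Asf1b by -0.22 (SE 0.22, edgeR adjusted p = 0.487) and Chaf1a by -0.09 (SE 0.21, edgeR adjusted p = 0.791) on the log2 scale.

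**Figure D3:**
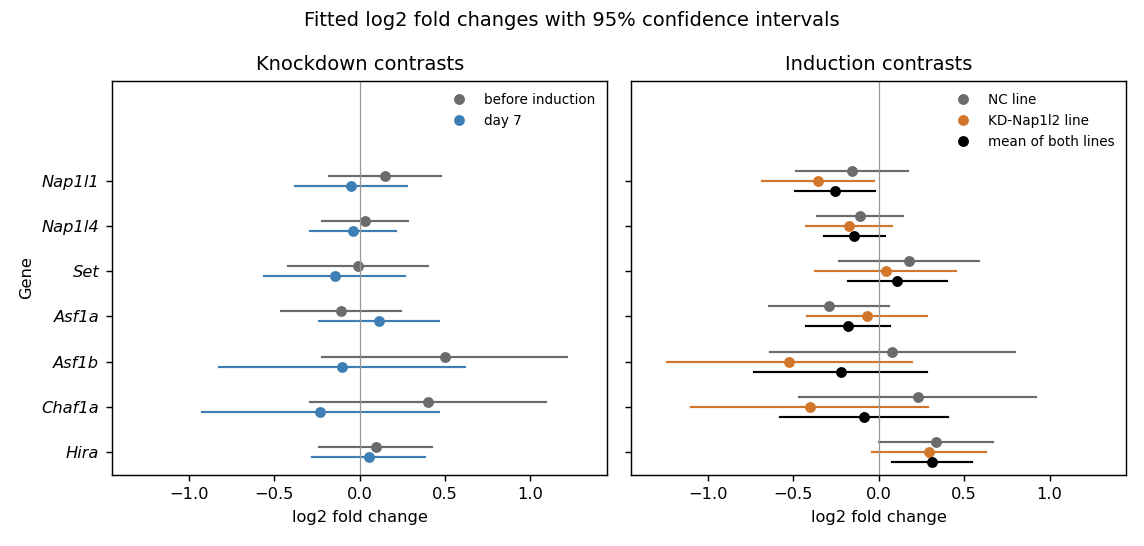
Log2 fold changes of 7 members (points) with 95% confidence intervals (lines) from the edgeR fit over 8 libraries, for knockdown over control (left) and day 7 over day 0 (right). The average interval of Hira, 0.08 to 0.55, and that of Nap1l1, -0.49 to -0.02, do not include 0, though neither gene passed the adjusted threshold, and Asf1b and Chaf1a have the widest intervals. Nap1l2 is left out because its intervals are several times wider.

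Asf1b and Chaf1a, the pair tied to replication, varied widely between the replicates of the control groups. Asf1b measured 15.9 and 28.2 CPM in NC, 29.7 and 32.7 CPM in KD-Nap1l2, 17.1 and 29.4 CPM in NC-7d, and 20.9 and 22.5 CPM in KD-Nap1l2-7d. Chaf1a measured 24.4 and 40.9 CPM in NC, 47.2 and 38.9 CPM in KD-Nap1l2, 28.1 and 48.3 CPM in NC-7d, and 31.4 and 33.8 CPM in KD-Nap1l2-7d. In both genes NC replicate 1 and NC-7d replicate 1 were the lowest libraries. Replicate 1 lay below replicate 2 by a log2 difference of -0.83 for Asf1b and -0.74 for Chaf1a in NC, and of -0.78 for each in NC-7d. In KD-Nap1l2-7d both genes differed between replicates by -0.11. The knockdown log2 fold changes before induction were 0.50 for Asf1b (SE 0.31, edgeR adjusted p = 0.531) and 0.40 for Chaf1a (SE 0.30, edgeR adjusted p = 0.607). Without NC replicate 2 they were 0.97 and 0.82, and without NC replicate 1 they were 0.14 and 0.08. Leaving out 1 control library thus moved them by more than the estimate's error. With induction, both KD-Nap1l2-7d libraries lay below both KD-Nap1l2 libraries for each gene, with log2 fold changes of -0.52 for Asf1b (SE 0.31, edgeR adjusted p = 0.287) and -0.40 for Chaf1a (SE 0.30, edgeR adjusted p = 0.395). In the NC line, where the groups overlapped, the values were 0.08 (SE 0.31, edgeR adjusted p = 0.905) and 0.23 (SE 0.30, edgeR adjusted p = 0.690).

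Asf1a and Hira did not share this pattern, while some histone chaperones outside the 10, named after their values were seen, did in part. Mcm2 (42.0 and 76.6 CPM in NC, 56.3 and 86.8 CPM in NC-7d) and Tonsl (13.7 and 21.9 CPM, 11.5 and 24.9 CPM) were also lowest in NC replicate 1 and NC-7d replicate 1. Chaf1b, another CAF-1 subunit (18.2 and 28.3 CPM, 19.1 and 31.0 CPM), and Nasp (32.5 and 39.7 CPM, 30.3 and 39.0 CPM) were lower in replicate 1 of those groups, but those libraries were not the 2 lowest of the 8. Other histone chaperones outside the 10 went the other way. Rbbp4 (200 and 191 CPM in NC, 222 and 214 CPM in NC-7d) was higher in replicate 1 of both groups. So were Atrx (232 and 206 CPM, 213 and 195 CPM) and Spty2d1 (55.1 and 47.2 CPM, 47.0 and 37.9 CPM). Daxx was higher in replicate 1 of NC-7d but not of NC. Asf1a, the ASF1 form that is less tied to dividing cells, measured 29.8 and 27.0 CPM in NC, 28.7 and 23.95 CPM in KD-Nap1l2, 25.2 and 21.3 CPM in NC-7d, and 24.7 and 25.6 CPM in KD-Nap1l2-7d. In NC replicate 1 and NC-7d replicate 1 it was higher than in the other replicate. The ratio of Asf1b to Asf1a in FPKM was accordingly 0.734 and 0.939 in those libraries and 1.17 to 1.90 in the other 6. The profiles of Asf1b and Chaf1a, as log2 CPM centred on each gene's mean, differed by a root mean square of 0.14 over the 8 libraries. Of the 28 pairs of tested members, only Nap1l1 with Nap1l4 (0.12) and Nap1l4 with Asf1a (0.14) were closer. Both of the latter pairs hold genes that vary less, whereas Asf1b and Chaf1a have a standard deviation over libraries of 0.39 and 0.35. Among 11273 other genes, the profiles nearest to that of Asf1b were those of Dnmt1 (0.10), the maintenance DNA methyltransferase, Pold1 (0.12), the catalytic subunit of DNA polymerase delta, and Fam111a (0.13). For Chaf1a, looked at after its values were seen, they were Dnmt1 (0.08) and the replication helicase subunits Mcm3 (0.09) and Mcm2 (0.10). Those for Nap1l2 were Zfp972, Adipor2 and Chst15, at 0.34 to 0.35, but the Nap1l2 profile rested on 2 to 15 counts a library.

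A list of 30 replication and mitosis genes, chosen with results of these data known, gave the level of such genes in each library. Its summed level was 1957 and 2462 CPM in NC, 2765 and 2448 CPM in KD-Nap1l2, 1280 and 2450 CPM in NC-7d, and 1479 and 1590 CPM in KD-Nap1l2-7d. NC replicate 1 and NC-7d replicate 1 were again below the other replicate of their group. NC-7d replicate 1 was the lowest of all, but NC replicate 1 lay above both KD-Nap1l2-7d libraries. All 30 genes had a lower average level at day 7, with a median log2 fold change of -0.48 (-0.01 over all tested genes), and 7 of 30 passed the test, all lower, beside the 25.5% of all genes called. Without NC-7d replicate 2, 17 of 30 were called, without either KD-Nap1l2-7d library 0 were, and without any 1 of the NC or KD-Nap1l2 libraries 1 to 3 were. With induction in the NC line alone, 26 of the 30 were lower (median log2 fold change -0.24), with 0 called by edgeR beside 8.21% of all genes. In the KD-Nap1l2 line alone, 30 of 30 were lower (median -0.64), with 4 called beside 14.2% of all genes. With the knockdown 0 of 30 were called by edgeR or by DESeq2 at either time, and 0 had an unadjusted p under 0.05. The fitted values lay above 0 for 29 of the 30 before induction (median log2 fold change 0.21, 0.01 over all tested genes). At day 7 they lay below 0 for 28 of the 30 (median -0.27, -0.01 over all tested genes). Genes of such a list can vary together, so these counts are not of separate results. In summed level both KD-Nap1l2-7d libraries lay between the 2 NC-7d libraries, and KD-Nap1l2 replicate 2 lay just below NC replicate 2. For the difference between the knockdown contrasts 0 of 30 were called by either tool, with 0 at an unadjusted p under 0.05. The part of these replication genes in the values of Asf1b and Chaf1a was not tested.

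**Figure D4:**
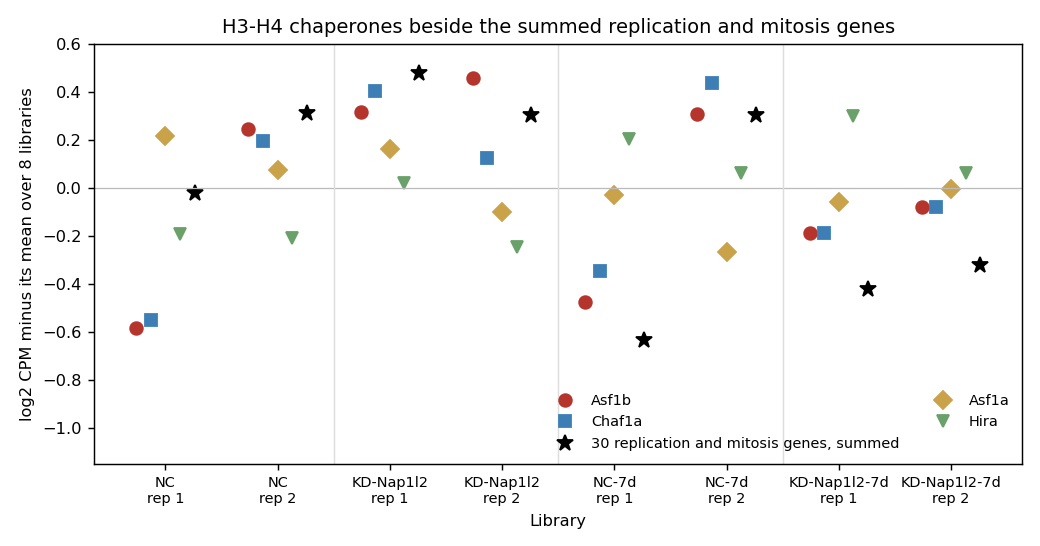
Log2 CPM of Asf1b, Chaf1a, Asf1a and Hira and of the summed 30 replication and mitosis genes (stars) in each library, each minus its mean over the 8 libraries. Asf1b and Chaf1a are low in NC replicate 1 (15.9 and 24.4 CPM) and NC-7d replicate 1 (17.1 and 28.1 CPM), where Asf1a is not, and the summed list is lowest in NC-7d replicate 1 (1280 CPM).

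The stretch before the start of each gene was searched for letters known from cell cycle promoters, because Asf1b and Chaf1a moved together. RefSeq (GRCm38.p6) gave such a stretch for 8 of the 10 genes, with 2 starts for Set and none for Nap1l2 and Nap1l4. The letters searched on both strands of the 250 bases before the start were TTCCCGC and TTGGCGC (E2F type), TTTGAA (the cell cycle genes homology region, CHR) and CCAAT (the CCAAT box), and no matches overlapped in the sequences shown. Of all 32851 promoters, 5.6% held either E2F letter string, 16.0% held TTTGAA, 33.8% held CCAAT and 0.8% held 4 or more CCAAT. Asf1b held 4 CCAAT, all on the opposite strand, and 1 TTTGAA that begins 14 bases before the start. Chaf1a held 1 CCAAT that begins 81 bases and 1 TTCCCGC that begins 47 bases before the start. Nap1l1 also held 1 E2F string, TTCCCGC on the opposite strand, and 1 CCAAT, the same kinds as Chaf1a. The window of the upstream Set start held TTTGAA and CCAAT, the same kinds as Asf1b, and that of the downstream start held CCAAT alone. Nap1l3 held TTTGAA alone, and Nap1l5 and Asf1a held CCAAT alone. Hira held none of the 4. The windows of Asf1b (chr8:83955444-83955693, plus strand) and Chaf1a (chr17:56040166-56040415, plus strand) are given 5′ to 3′ with the matches in capitals, and ATTGG is CCAAT read on the opposite strand. GENCODE places the start of Asf1b within its window, at 83955507. Of the Asf1b matches, only the CCAAT that begins 200 bases before the RefSeq start lies before the GENCODE start. The other Asf1b matches lie inside the GENCODE transcript.
Asf1b: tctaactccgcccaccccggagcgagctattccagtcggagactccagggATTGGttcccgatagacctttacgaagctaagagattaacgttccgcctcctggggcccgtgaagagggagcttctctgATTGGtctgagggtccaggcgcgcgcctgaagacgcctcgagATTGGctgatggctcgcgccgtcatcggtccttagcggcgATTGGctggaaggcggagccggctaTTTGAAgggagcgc
Chaf1a: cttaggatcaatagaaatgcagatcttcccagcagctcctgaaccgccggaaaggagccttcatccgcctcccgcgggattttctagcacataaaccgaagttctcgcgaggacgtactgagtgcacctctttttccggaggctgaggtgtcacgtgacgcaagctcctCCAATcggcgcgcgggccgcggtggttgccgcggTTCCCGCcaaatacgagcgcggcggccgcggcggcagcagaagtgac

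The transcript table splits 4 of the members into several transcripts. Nap1l2, Nap1l3, Nap1l5, Asf1a, Asf1b and Chaf1a had 1 transcript each. Shares are of the summed transcript FPKM of a gene, for the 9 transcripts of Nap1l1, Nap1l4, Set and Hira with a mean share of at least 10%. They are estimates by the authors' software, which divides reads common to several transcripts. The exact permutation tests of these shares were added after the data had been seen. There were 18 of them, so an unadjusted p of 0.0286, the smallest possible, became 0.129.

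Set has 2 starts in RefSeq, 4478 bases apart, and each of its transcripts in the table begins near 1 of them. NM_023871.4 begins at the upstream start (30061853 in GENCODE on chromosome 2) and codes for 289 residues, and NM_001204875.1 begins at the downstream start (30066456) and codes for 277. NM_023871.4 made up 23.3% and 27.1% of Set in NC, 21.8% and 10.3% in KD-Nap1l2, 32.1% and 32.1% in NC-7d, and 29.1% and 34.7% in KD-Nap1l2-7d. All 4 day 7 libraries lay above all 4 uninduced ones, with means of 32.0% ± 2.28 (SD, n = 4) and 20.6% ± 7.26 (SD, n = 4). The difference was 11.4 percentage points by 2-sided exact permutation (p = 0.0286, adjusted 0.129). Over all 20315 transcripts of tested genes with several transcripts and a mean share of at least 10%, 4.38% were separated in this way between day 7 and uninduced libraries. In FPKM the upstream transcript measured 14.5 and 20.1 in NC, 18.2 and 5.47 in KD-Nap1l2, 24.8 and 25.0 in NC-7d, and 20.8 and 23.6 in KD-Nap1l2-7d, again without overlap between times, while the sum of Set did overlap. The downstream transcript measured 44.5 to 65.1 FPKM with overlap. The lowest library for the upstream transcript, KD-Nap1l2 replicate 2, was also the lowest for the whole of Set.

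The 250 bases before each of the RefSeq starts of Set are shown because its transcripts differ in where they begin. The upstream window (chr2:30061746-30061995, plus strand) had 65.6% G or C and the downstream window (chr2:30066224-30066473, plus strand) 79.6%. Each held 1 CCAAT, on the opposite strand 24 bases before the upstream start and on the gene's strand 103 bases before the downstream start. The upstream window also held TTTGAA on the opposite strand, which reads TTCAAA. The sequences run 5′ to 3′ with the matches in capitals. GENCODE starts both transcripts inside these windows. Both matches of the upstream window lie after the GENCODE start of that transcript (30061853), so inside it. The CCAAT of the downstream window lies before the GENCODE start there (30066456).
Set upstream: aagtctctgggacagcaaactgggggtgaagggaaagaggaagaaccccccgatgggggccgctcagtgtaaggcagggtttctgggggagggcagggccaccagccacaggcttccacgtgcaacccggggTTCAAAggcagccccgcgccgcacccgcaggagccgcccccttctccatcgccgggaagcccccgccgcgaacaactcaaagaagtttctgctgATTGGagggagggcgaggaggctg
Set downstream: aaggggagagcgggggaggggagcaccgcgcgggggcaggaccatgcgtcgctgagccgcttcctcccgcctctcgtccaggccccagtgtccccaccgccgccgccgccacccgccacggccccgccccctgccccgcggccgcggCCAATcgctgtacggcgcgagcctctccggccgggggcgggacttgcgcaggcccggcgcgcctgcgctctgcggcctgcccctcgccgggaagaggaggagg

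In Nap1l4, 1 transcript share did not overlap between the lines, though the difference did not pass the adjusted test. NM_008672.3, with 16 exons and 375 coded residues, made up 40.4% and 43.7% of Nap1l4 in NC and 38.1% and 35.7% in NC-7d, against 33.6% and 25.4% in KD-Nap1l2 and 31.0% and 29.3% in KD-Nap1l2-7d. All 4 NC libraries lay above all 4 libraries labelled KD-Nap1l2. The means were 39.5% ± 3.41 (SD, n = 4) and 29.8% ± 3.43 (SD, n = 4), a difference of -9.67 percentage points (2-sided exact permutation p = 0.0286, adjusted 0.129). Over all transcripts, 2.62% were separated between the NC and KD-Nap1l2 libraries. NM_001285489.1, with 15 exons and 386 residues, ran the other way, at 36.6% to 59.9% in the NC libraries and 58.0% to 66.5% in the others, with overlap (exact permutation p = 0.0857). In NC replicate 1 the third transcript, NM_001285490.1, took 20.2%, against 1.4% to 11.8% elsewhere.

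In Hira, XM_006521802.3 made up 28.8% and 27.9% in NC and 32.1% and 27.1% in NC-7d, against 17.3% and 24.6% in KD-Nap1l2 and 9.34% and 25.7% in KD-Nap1l2-7d. The 4 NC libraries were again above the 4 KD-Nap1l2 ones, by 9.75 percentage points in the mean (2-sided exact permutation p = 0.0286, adjusted 0.129), but NC-7d replicate 2 and KD-Nap1l2-7d replicate 2 were only 27.1% and 25.7%. The main Hira transcript, XM_006521800.2, ranged from 33.4% to 69.8% with overlap in both comparisons. The main Nap1l1 transcript, NM_015781.4, was steady at 66.1% to 72.1%. The shares of NM_008672.3, NM_023871.4 and XM_006521802.3 were separated in the same direction when taken from transcript counts instead of FPKM.

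**Figure D5:**
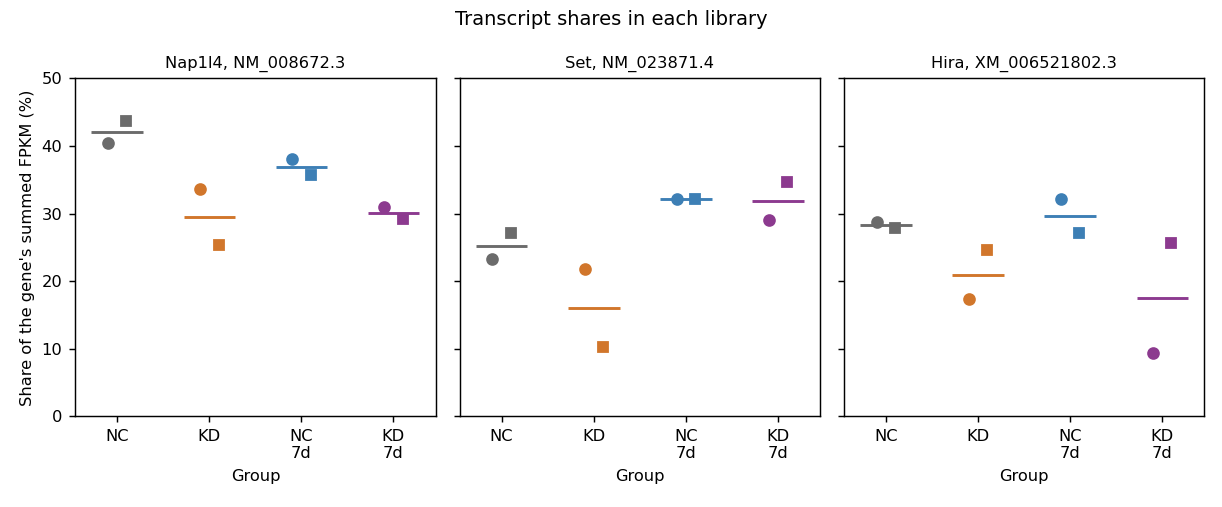
Share of the gene's summed transcript FPKM (percent) taken by 1 transcript each of Nap1l4, Set and Hira in each library; circles are replicate 1, squares are replicate 2 and lines are means of 2 libraries. The Nap1l4 transcript is at 35.7% to 43.7% in NC libraries and 25.4% to 33.6% in KD-Nap1l2 libraries, and the Set transcript at 29.1% to 34.7% at day 7 and 10.3% to 27.1% before.

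The wider set of histone chaperones was read from a list of 35 genes, of which 34 matched the table by symbol and all 34 were tested. With the knockdown 0 of 34 were called by edgeR or by DESeq2 at either time, with 2 at an unadjusted p under 0.05 before induction (13.7% of all genes) and 1 at day 7 (7.85% of all genes). With induction averaged over both lines, 3 fell and 1 rose, and the median of the 34 was -0.04 on the log2 scale (-0.01 over all tested genes). That is 4 of 34 beside 25.5% of all genes. Tspyl4, a relative of the NAP1 family, fell by 0.80 on the log2 scale (SE 0.11, edgeR adjusted p = 0.0023), from 60.7 to 74.0 CPM over the uninduced libraries to 31.0 to 40.8 CPM at day 7. It was the only one of the 34 called in the NC line alone (log2 fold change -0.93, edgeR adjusted p = 0.0133), and it was also called in the KD-Nap1l2 line (-0.67, edgeR adjusted p = 0.0285). Without NC replicate 1 none of the 34 was called in the NC line, and without NC-7d replicate 2 there were 2. Anp32e, which removes H2A.Z from chromatin, fell by 0.53 (SE 0.094, edgeR adjusted p = 0.0063), from 83.6 to 115 CPM to 62.4 to 67.0 CPM. Hjurp, the chaperone of the centromeric H3 variant CENP-A, fell by 0.70 (SE 0.17, edgeR adjusted p = 0.0198), from 142 to 190 CPM to 79.9 to 136 CPM, and like Asf1b it was lower in replicate 1 than in replicate 2 of NC and of NC-7d. Ipo4, an importin that carries H3-H4 with ASF1 into the nucleus, rose by 0.52 (SE 0.11, edgeR adjusted p = 0.0140), from 62.9 to 74.5 CPM to 82.6 to 115 CPM. The day 7 and the uninduced libraries did not overlap for any of these 4 genes. They were named because they were called with induction, so this separation adds no support. Without NC replicate 1 or without KD-Nap1l2-7d replicate 1 only 2 of the 34 were called, and up to 6 were called when 1 other library was left out. In the KD-Nap1l2 line alone, where all 4 were called, leaving out 1 of its libraries left 0 to 2.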

How the data were processed

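RNA of C3H10T1/2 cells was sequenced from 8 libraries in 4 groups of 2, whose replicate numbers came from the sample titles. The labels do not say that replicates were separate cultures, so p-values measure only the spread between these libraries, which may be technical. Per the labels and the submitters' processing notes, the authors used BWA, Bowtie2 and RSEM with GRCm38.p6, and deposited expected counts and FPKM values per gene and per transcript. The versions are not given in the sources used here. Of the genes, 41.1% had a count that was not whole, among them Nap1l1, Asf1a and Nap1l3, because RSEM divides reads between similar genes, so these levels are less certain. Columns of group averages and the authors' own comparison tables of fold changes and p-values were not used. Expected counts were rounded and tested with edgeR 4.0.16 in R 4.3.3 (TMM scaling, filterByExpr, quasi-likelihood test, 1 model over 8 libraries, Benjamini-Hochberg adjustment over 13470 genes, called at 0.05). DESeq2 1.42.0, limma 3.58.1 on log2(FPKM + 1) or log2(FPKM + 0.1), other scaling, no filter, fewer libraries and a replicate block were the alternatives. CPM values are counts scaled to a total of 1000000 after TMM scaling. On simulated data for KD-Nap1l2 against NC with 13281 genes, edgeR found 53 of 100 genes changed 2-fold and 92 of 100 changed 4-fold. It made 11 false calls beside the 145 genes found. Changes under 2-fold were not simulated. The changed genes were drawn only from those with a mean of at least 50 counts, so these rates do not cover Nap1l2. The libraries held 17420284 to 19427359 counts. Intervals of the edgeR fit include the spread between libraries, and floors cover counting error only. The members and gene lists were chosen with earlier results of these data known. Named genes were all members, the other chaperones with an adjusted p under 0.05 in any contrast, and the 3 genes of most similar profile (mean of at least 50 normalized counts) for the 2 members that varied most between groups, Nap1l2 and Asf1b. Transcripts were named from a mean share of 10%. Gene coordinates and promoters were taken from RefSeq (GRCm38.p6), transcript structure from GENCODE vM21, and primers from the study's supplement.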

Additional observations from a re-analysis of the deposited data

How the results depend on the processing

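For genes called with the knockdown before induction, DESeq2 gave 453, no filter 160, only the libraries compared 0, the replicate block 4, limma 33 with a pseudocount of 1 and 18 with 0.1, against 11, and leaving out 1 library gave 0 to 562, the highest without KD-Nap1l2 replicate 1. At day 7, DESeq2 gave 78 against 0, and leaving out 1 library 0 to 1. For the knockdown averaged over both times, DESeq2 gave 467, no filter 131, the replicate block 2 and limma with a pseudocount of 1 gave 22 against 8, with 0 to 570 when 1 library was left out, the highest again without KD-Nap1l2 replicate 1. For the difference between the knockdown contrasts, DESeq2 gave 100 and no filter 1 against 0, with 0 to 19, the highest without NC-7d replicate 1. For induction the counts with 1 library left out were 122 to 926 in NC (lowest without NC replicate 1), 305 to 2200 in KD-Nap1l2 (lowest without KD-Nap1l2-7d replicate 1) and 1684 to 3918 on average (lowest without NC replicate 1). The cause was not tested.

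No member was called under the alternatives, except Hira for the average induction with the replicate block (1 member against 0) and without KD-Nap1l2 replicate 1 (0 to 1 over the libraries left out). Replicate numbers did not pair the libraries, since the correlations of replicate 1 minus replicate 2 between groups over 13470 genes ran from -0.061 to 0.104, so the block result is given only as a value. The Nap1l2 log2 fold change at day 7 turned positive with RLE scaling (0.0017), with only the libraries compared (0.0069), and with limma at a pseudocount of 1 (0.0044) and of 0.1 (0.072), and that of Asf1a averaged over both times turned negative without the filter (-0.0026). Leaving out 1 library turned the sign of the log2 fold changes that follow, none of which passed the test. The ranges for KD-Nap1l2 over NC were -0.53 to 1.30 for Nap1l2, -0.014 to 0.071 for Nap1l4, -0.28 to 0.22 for Set, -0.25 to 0.016 for Asf1a and -0.047 to 0.22 for Hira. The ranges for KD-Nap1l2-7d over NC-7d were -0.17 to 0.083 for Nap1l1, -0.64 to 1.08 for Nap1l2, -0.0019 to 0.24 for Asf1a, -0.44 to 0.34 for Asf1b, -0.57 to 0.21 for Chaf1a and -0.070 to 0.16 for Hira. The ranges for NC-7d over NC were -0.36 to 0.56 for Asf1b and -0.22 to 0.65 for Chaf1a. The ranges for KD-Nap1l2-7d over KD-Nap1l2 were -0.19 to 0.32 for Set and -0.19 to 0.068 for Asf1a. The ranges for the knockdown averaged over both times were -0.013 to 0.12 for Nap1l1, -0.27 to 0.86 for Nap1l2, -0.026 to 0.017 for Nap1l4, -0.22 to 0.037 for Set, -0.067 to 0.064 for Asf1a and -0.085 to 0.31 for Chaf1a. The ranges for induction averaged over both lines were -0.0060 to 0.25 for Set, -0.44 to 0.016 for Asf1b and -0.31 to 0.12 for Chaf1a. The ranges for the difference between the knockdown contrasts were -1.30 to 0.53 for Nap1l2, -0.37 to 0.14 for Set and -0.17 to 0.10 for Hira.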
